A study of Rattus norvegicus with 12 samples.

Results

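Amino acids enter a cell through carrier proteins of the plasma membrane. The 9 carriers described here were chosen by name: Slc7a1 and Slc7a3, which carry cationic amino acids such as arginine and lysine, Slc7a5 and its heavy chain Slc3a2, which exchange large neutral amino acids such as leucine, Slc1a4 and Slc1a5, which exchange small neutral amino acids such as serine, alanine and glutamine, Slc38a1 and Slc38a2, which take up glutamine and other neutral amino acids together with sodium, and Slc6a9, the glycine transporter 1. The choice was made with earlier results of these data known. They are 9 of the 36181 distinct gene names on the array, and 7 of them had signal enough to be tested. The cells were N27, an immortalised line from rat midbrain that the labels call dopaminergic neurons. The knockout (KO) group held 7 cultures in which the gene of VDAC1, a channel of the outer membrane of mitochondria, had been removed with CRISPR, and the wild-type (WT) group held 5 cultures of the same line without that edit. Both groups were grown to the same stated confluence with no further treatment named. The sources used here do not say whether the knockout cultures came from 1 clone.

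As background, these carriers work as a network. Exchangers such as SLC1A5 and the SLC7A5-SLC3A2 pair swap one amino acid for another, so they depend on loaders such as SLC38A1 and SLC38A2 that move glutamine inward with sodium. Several of their genes are known targets of the transcription factor ATF4, the effector of the integrated stress response, which cells raise when amino acids run short or mitochondria are disturbed, and leucine and arginine brought in by them feed the growth-controlling kinase complex mTORC1.

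Each culture was read on 1 one-colour array. The 75th percentile of the processed signal lay between 143 and 692 on KO arrays and between 120 and 450 on WT arrays, while spots well above background made up 42.3% to 53.8%, with 0 saturated. All levels below are log2 signals relative to that percentile of the same array, and levels of different genes are not set against each other because their probes differ. The arrays lay on 3 slides, each with both genotypes. By the file headers, slides 1 and 2 were scanned on 1 day and slide 3 on another. Slide 3 held KO 4, KO 5, WT 6 and WT 7. These arrays had the lowest 75th percentiles (120 to 190) and the lowest shares of spots well above background (42.3% to 44.9%). Vdac1 itself averaged 1.98 ± 0.65 on KO arrays and 3.21 ± 0.23 on WT arrays (SD, n = 7 and 5), with the highest KO array at 2.68 and the lowest WT array at 3.07, yet its difference of -1.23 (SE 0.28) did not pass (limma adjusted p = 0.0560). The label of dopaminergic neuron was borne out in part. Th, the enzyme that starts dopamine synthesis, was well above background on all 12 arrays, while Slc6a3, Ddc, Foxa2 and En1 were so on none. Slc18a2 was so on 6 KO and 3 WT arrays, Lmx1b on 3 and 1, and Pitx3 on 1 and 0. Nr4a2 was so on 1 KO and 4 WT arrays and differed by -1.19 (limma adjusted p = 0.143). Of 5 neural progenitor markers Nes and Vim were so on all 12 arrays, Sox2 on 4 KO and 3 WT arrays, and Pax6 and Msi1 on none. Of 9 general neuron markers 6 were on no array, while of 8 fibroblast markers Col1a1, Pdgfrb and Thy1 were so on all 12 and Dcn and Lum on none. Summed over those 8 markers, linear signal relative to the 75th percentile ran from 0.595 to 1.16 on KO arrays and from 0.725 to 1.09 on WT arrays. Col3a1, one of them, was well above background on 0 of 7 KO and 4 of 5 WT arrays (means -5.38 and -3.79) and was not tested, and its part in the results on the carriers was not tested. Of 6 microglia markers Cx3cr1 was well above background on all 12 arrays and 4 were so on none. Of 6 astrocyte markers 4 were so on no array, and of 5 oligodendrocyte markers 4. Of 48 markers of all cell types 13 had signal enough to be tested, and limma called 0 of these. In RNA from whole cultures fewer cells of a type and less RNA per cell cannot be told apart.

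All 7 tested carriers averaged lower on KO arrays, and 1 of them, Slc1a4, passed the test. The median log2 fold change, KO minus WT, was -0.53 for the 7 carriers and 0.040 for all 14742 features tested, of which 44.7% were below 0. The test was limma over all features, and a feature is called where its Benjamini-Hochberg adjusted p is under 0.05. Limma called 0.393% of all features lower and 0.699% higher (58 and 103 features), against 1 of 7 carriers lower and 0 higher. At unadjusted p under 0.05 limma gave 4 of the 7 carriers as lower, against 6.23% of all features. Because the carriers were chosen with earlier results of these data known, these counts and the median only describe them. With quantile normalization in place of the 75th percentile 48 features were called lower and 56 higher, with 0 carriers among them. Testing required a probe well above background on 5 or more of 12 arrays, and Slc1a4 met this mainly through WT arrays.

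**Figure D1:**
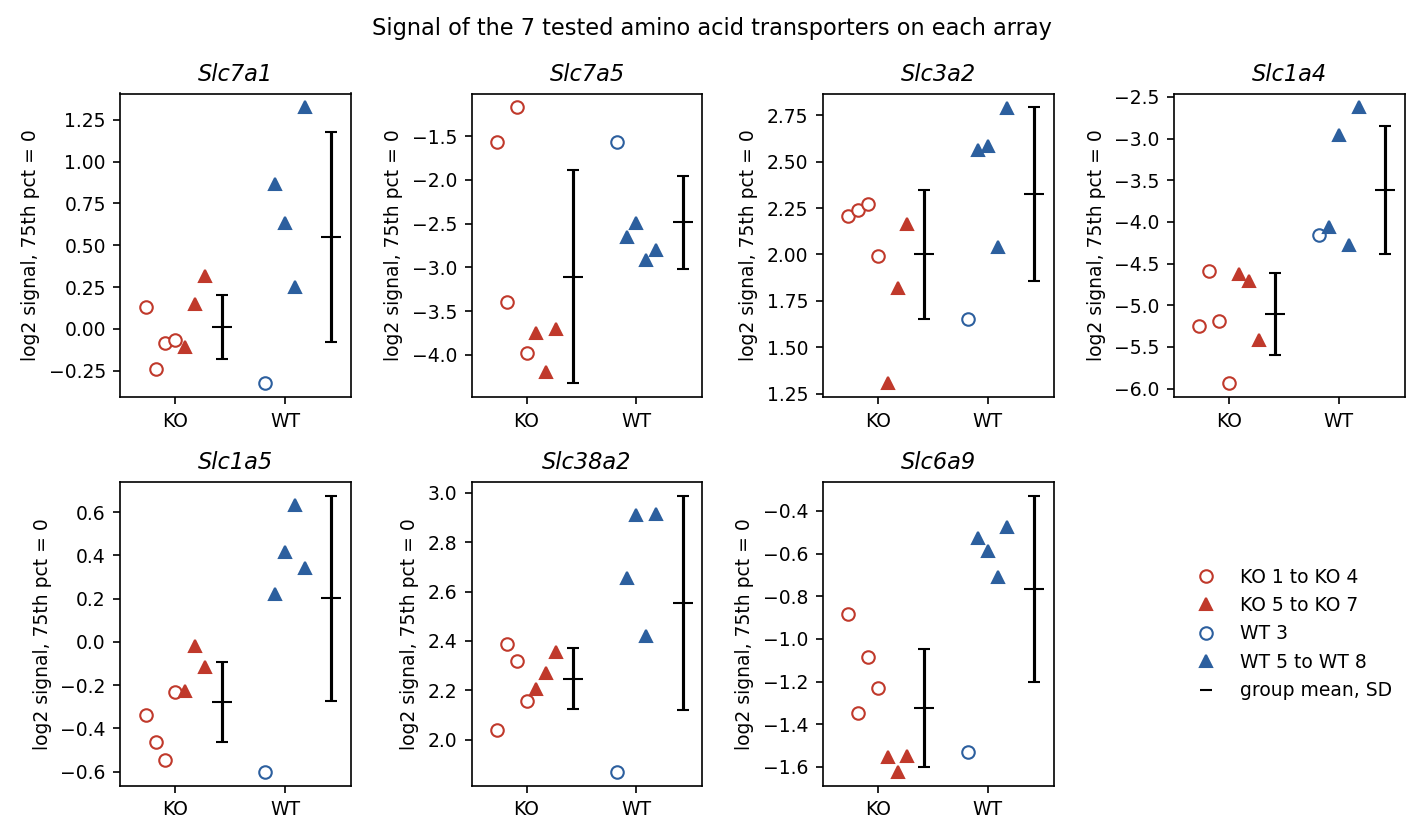
The log2 signal (y axis, array's 75th percentile at 0) of each of the 7 tested carriers is plotted for every array, KO left and WT right, with group means and SD. Open circles are sample numbers 1 to 4 and filled triangles 5 to 8; the KO and WT points do not overlap for Slc1a4, a probe near background on most KO arrays, and WT 3 lies lowest of the WT arrays for Slc7a1, Slc3a2, Slc1a5, Slc38a2 and Slc6a9.

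Slc1a4, the exchanger ASCT1 that carries serine and alanine, was lower on KO arrays by the test over all features, at a probe near background on most of them. It was well above background on 2 of 7 KO arrays (KO 2 and KO 6) and on 4 of 5 WT arrays (all but WT 7), so the size of the difference is uncertain. Its signal had a lowest, median and highest value of -5.94, -5.18 and -4.59 over the 7 KO arrays, against -4.16 on WT 3, -4.06 on WT 5, -2.96 on WT 6, -4.27 on WT 7 and -2.62 on WT 8. As measured, the values of the groups did not overlap, and WT 6 and WT 8 were highest, but values not well above background have no sure order. The KO mean was -5.10 ± 0.49 and the WT mean -3.61 ± 0.76 (SD, n = 7 and 5), a log2 fold change of -1.49 (SE 0.33, limma adjusted p = 0.0487). Values without overlap, KO below WT, were seen in 1 of the 7 carriers and in 0.883% of all features, and with this probe near background nothing is read from that count. The KO mean lay 0.57 below, and the WT mean 0.75 above, the mean of each array's lowest signal among spots well above background. With normexp background correction, which shrinks differences between dim spots, the log2 fold change was -0.46 (limma adjusted p = 0.708). With slide as a block it was -1.47 (limma adjusted p = 0.0564). Slides 1, 2 and 3 taken singly gave -1.67, -0.95 and -1.67. The call was lost when any 1 array other than WT 3 was left out (limma adjusted p from 0.0557 to 0.121) and when a covariate for RNA quality was added (0.0539). The Slc1a4 probe lies on chromosome 14 at 101123891 to 101123950 in the file's coordinates, whose header names build rn4.

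The bases upstream of the Slc1a4 start hold both motifs searched for, which is why they are shown. The motifs were TTGCATCA, a form of the C/EBP-ATF response element that ATF4 is known to bind, its looser form TTNCATCA, and the E-box CACGTG, the site of the MYC family, each on both strands, in RefSeq windows of build GRCr8 from 250 bases before to 50 after a gene's start. The looser form includes the stricter one. Windows were found for 7 of the 9 carriers. The 250 bases before the start of Slc1a4, at chr14:98761563-98761812 on the minus strand, are given 5′ to 3′ with the motif letters in capitals.
Slc1a4: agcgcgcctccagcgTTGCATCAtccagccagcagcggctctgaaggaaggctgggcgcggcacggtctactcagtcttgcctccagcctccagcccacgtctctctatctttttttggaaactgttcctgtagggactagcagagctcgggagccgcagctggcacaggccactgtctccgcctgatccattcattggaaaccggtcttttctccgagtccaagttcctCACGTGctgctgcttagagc
Counted from the start, the response element begins at position -235 and the E-box at position -20. Over 33469 windows TTGCATCA was found in 0.795%, TTNCATCA in 3.98% and CACGTG in 6.42%. A match is a run of letters and not a measured binding site.

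Among the other carriers the strict element was found in Slc38a1, the loose form in Slc7a1 and an E-box in Slc7a5, and these short stretches show their letters beside those of Slc1a4. They lie at chr7:129681516-129681563 on the minus strand for Slc38a1, chr12:11664438-11664485 on the plus strand for Slc7a1 and chr19:66872566-66872611 on the minus strand for Slc7a5, with the motif in capitals. In Slc38a1 and Slc7a1 the capitals spell the motif's reverse complement.
Slc38a1: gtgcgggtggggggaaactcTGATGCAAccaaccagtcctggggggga
Slc7a1: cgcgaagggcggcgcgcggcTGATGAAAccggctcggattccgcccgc
Slc7a5: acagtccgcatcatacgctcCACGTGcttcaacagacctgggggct
The windows of Slc3a2, Slc38a2 and Slc6a9 held 0 matches, which says only that these letters are not in them. Slc1a4 holds a match, and so do Slc7a1 and Slc7a5, which did not pass the test.

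Slc1a5, the exchanger ASCT2 that is a main route for glutamine, averaged -0.28 ± 0.19 on KO arrays and 0.20 ± 0.47 on WT arrays (SD, n = 7 and 5). The lowest, median and highest KO values were -0.55, -0.23 and -0.021, against -0.60 on WT 3, 0.22 on WT 5, 0.42 on WT 6, 0.63 on WT 7 and 0.34 on WT 8. The groups overlap through WT 3, which lay below every KO array. The log2 fold change of -0.48 (SE 0.19, limma adjusted p = 0.252) did not pass. Slides 1, 2 and 3 taken singly gave 0.063, -0.67 and -0.75. Both exchangers of the family thus averaged lower on KO arrays, and of these Slc1a4 passed.

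Slc7a5 encodes LAT1, the light chain that carries leucine, and its spread within the knockout was the widest of the 7 carriers. KO 1 and KO 3 had -1.57 and -1.17, while the other 5 KO arrays lay between -4.19 and -3.39 and the median of all 7 was -3.70. The WT values were -1.57 on WT 3, -2.65 on WT 5, -2.50 on WT 6, -2.91 on WT 7 and -2.80 on WT 8, inside the KO range. The KO mean was -3.11 ± 1.22 and the WT mean -2.49 ± 0.54 (SD, n = 7 and 5), and the log2 fold change of -0.62 (SE 0.52, limma adjusted p = 0.593) did not pass. The probe was well above background on 5 of 7 KO and 5 of 5 WT arrays. Within slides 1, 2 and 3 the difference was -1.76, 0.60 and -1.16. Over all arrays with normexp background correction it was -0.26 (limma adjusted p = 0.980).

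Slc3a2 encodes 4F2hc, the heavy chain that brings LAT1 and other light chains to the membrane. Its lowest, median and highest KO values were 1.31, 2.16 and 2.27, against 1.65 on WT 3, 2.56 on WT 5, 2.58 on WT 6, 2.04 on WT 7 and 2.79 on WT 8. The groups overlap, with WT 5, WT 6 and WT 8 above every KO array. Slc3a2 averaged 2.0 ± 0.35 on KO arrays and 2.33 ± 0.47 on WT arrays (SD, n = 7 and 5), a difference of -0.33 (SE 0.22) that did not pass (limma adjusted p = 0.506). By slide, 1 to 3, the Slc3a2 difference was -0.23, -0.32 and -0.66. Of the other light chains that pair with it, Slc7a11, the cystine-glutamate exchanger xCT, is given with the other transporters below.

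Slc7a1, the arginine and lysine carrier CAT1, averaged 0.014 ± 0.19 on KO arrays and 0.55 ± 0.63 on WT arrays (SD, n = 7 and 5). The lowest, median and highest KO values were -0.24, -0.068 and 0.32, against -0.33 on WT 3, 0.87 on WT 5, 0.63 on WT 6, 0.25 on WT 7 and 1.32 on WT 8. WT 5, WT 6 and WT 8 lay above every KO array and WT 3 below every one. The log2 fold change of -0.53 (SE 0.23, limma adjusted p = 0.289) did not pass. Slides 1, 2 and 3 taken singly gave -0.27, -0.93 and -0.53, where slide 2 sets 3 KO arrays against WT 5 alone. A second Slc7a1 probe, at base 1931 of the transcript where the brighter one is at base 6246, was well above background on 1 KO and 1 WT array and was not tested. The related carrier Slc7a3 was well above background on 0 of 12 arrays, so no fold is given.

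Slc38a2, the sodium-coupled carrier SNAT2 that cells are known to raise when amino acids are scarce, was the tightest on KO arrays, at 2.25 ± 0.12, and averaged 2.55 ± 0.43 on WT arrays (SD, n = 7 and 5). Its lowest, median and highest KO values were 2.04, 2.27 and 2.39, against 1.87 on WT 3, 2.66 on WT 5, 2.91 on WT 6, 2.42 on WT 7 and 2.91 on WT 8. All WT arrays but WT 3 lay above every KO array. The log2 fold change was -0.31 (SE 0.17, limma adjusted p = 0.418). By slide, 1 to 3, the Slc38a2 difference was -0.078, -0.41 and -0.48. Slc38a1, the related carrier SNAT1, had both of its probes well above background on 0 of 12 arrays.

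Slc6a9, the glycine transporter GLYT1, averaged -1.32 ± 0.28 on KO arrays and -0.77 ± 0.44 on WT arrays (SD, n = 7 and 5). Its lowest, median and highest KO values were -1.62, -1.35 and -0.88, against -1.53 on WT 3, -0.53 on WT 5, -0.59 on WT 6, -0.71 on WT 7 and -0.47 on WT 8. WT 5 to WT 8 lay above every KO array and WT 3 between KO arrays, above only the 3 lowest. The log2 fold change of -0.56 (SE 0.20, limma adjusted p = 0.194) did not pass, although slides 1, 2 and 3 taken singly gave -0.59, -0.58 and -0.74. A dimmer probe at base 1836 was well above background on 2 KO and 3 WT arrays, and both group means lay near background. Fitted on its own, that probe differed by -0.15 (limma adjusted p = 0.914). With the mean of the gene's probes the Slc6a9 difference was -0.35 (limma adjusted p = 0.601).

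WT 3 set much of the picture. In 5 of the 7 carriers it was the lowest WT array, and it is the lone WT array among sample numbers 1 to 4, a split of the arrays that was known from earlier results. Without WT 3 limma called 4 of 7 carriers lower, against 1.82% of all features: Slc1a4 by -1.62 (adjusted p = 0.0246), Slc1a5 by -0.68 (adjusted p = 0.0206), Slc6a9 by -0.75 (adjusted p = 0.0239) and Slc7a1 by -0.75 (adjusted p = 0.0461). Slc1a4, Slc1a5, Slc38a2 and Slc6a9 then had every KO array below every WT array, with the limit on the order of Slc1a4 values given above. These were 4 of 7 carriers, against 2.9% of all features. Leaving out an array already seen to lie lowest in 5 of the 7 carriers favours both counts. So nothing is read from either count beside its share of all features. Whether WT 3 differs for a technical reason was not tested.

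Among sample numbers 5 to 8 alone, 3 KO and 4 WT arrays, limma called 2 of 7 carriers lower, against 2.34% of all features. These were Slc6a9, at -1.58 ± 0.041 on KO arrays and -0.57 ± 0.10 on WT arrays (log2 fold change -1.0, SE 0.14, limma adjusted p = 0.00905; SD, n = 3 and 4), and Slc7a5, at -3.88 ± 0.27 and -2.71 ± 0.18 (log2 fold change -1.17, SE 0.18, limma adjusted p = 0.0153). Slc1a4, Slc1a5 and Slc38a2 joined them in having every KO array below every WT array, 5 of 7 carriers, against 8.72% of all features. WT 3 is left out here too, so nothing is read from these counts either. Of all 7 KO arrays the Slc7a5 probe was well above background on 5, so the size of its difference is uncertain. Among sample numbers 1 to 4, 4 KO arrays and WT 3, the differences were above 0 for Slc7a1, Slc3a2, Slc1a5, Slc38a2 and Slc6a9 and below 0 for Slc7a5 and Slc1a4. These set the KO arrays against that 1 WT array, and nothing is read from their p-values. With the split as a block limma called 1 of 7 carriers lower, against 2.06% of all features, and it was Slc1a4 (-1.33, adjusted p = 0.0425). Whether the differences of the 2 number ranges themselves differ was not tested.

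**Figure D2:**
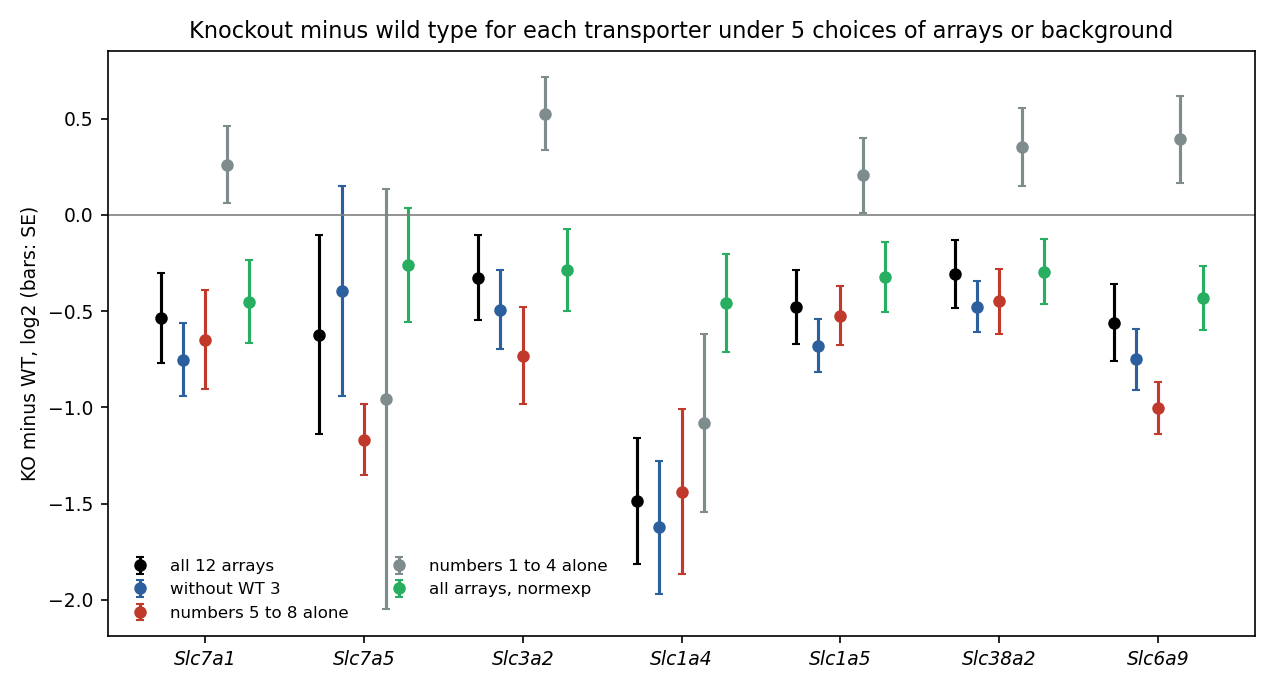
Log2 fold change, KO minus WT, with its SE (y axis), of each tested carrier for all 12 arrays, without WT 3, for sample numbers 5 to 8 and 1 to 4 alone, and with normexp. Slc1a4 and Slc7a5 lie below 0 in all 5, and the other carriers lie above 0 in numbers 1 to 4, where WT 3 is the lone WT array.

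Genes of related pathways were set beside the carriers, from lists drawn up with earlier results known. Of 12 genes of serine, proline and asparagine synthesis limma called 3 lower and 0 higher, beside the 0.393% and 0.699% of all features (median log2 fold change -0.38, 10 below 0). At unadjusted p under 0.05 the counts were 6 lower and 2 higher. These were Pycr1, which makes proline in mitochondria, at -0.035 ± 0.23 on KO arrays and 1.11 ± 0.39 on WT arrays (log2 fold change -1.15, limma adjusted p = 0.0197), Psph, the last enzyme of serine synthesis (-0.87, limma adjusted p = 0.0408), and Aldh18a1, the first enzyme of proline synthesis from glutamate (-0.62, limma adjusted p = 0.0408). With normexp Psph and Aldh18a1 missed the threshold (limma adjusted p = 0.0696 and 0.0937).

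Of 25 tested regulators of the integrated stress response limma called 1 lower and 0 higher, beside the same 0.393% and 0.699% (median -0.12, 15 below 0). At unadjusted p under 0.05 the counts were 7 lower and 2 higher, or 28.0% lower against 6.23% of all features. In numbers 5 to 8 alone limma called 4 of these regulators lower, against 2.34% of all features. There it called 3 genes of serine, proline and asparagine synthesis lower, and 0 in each of the other lists. WT 3 is left out there too, so nothing is read from these counts. The regulator called over all arrays was Nupr1, a stress-induced regulator of transcription. Nupr1 was at 1.28 ± 0.26 on KO arrays and 2.77 ± 0.51 on WT arrays (SD, n = 7 and 5; log2 fold change -1.49, limma adjusted p = 0.0109). Of 43 other amino acid transporters 14 were tested and limma called 0 (median 0.058, 4 below 0; 1 higher and 1 lower at unadjusted p under 0.05). The smallest p was that of Slc7a11, at -1.14 ± 0.57 on KO arrays and 0.38 ± 0.78 on WT arrays (log2 fold change -1.52, SE 0.35, limma adjusted p = 0.0561). It passed without WT 3 (adjusted p = 0.0199), with slide as a block (0.0461) and with the sample-number block (0.0453). In numbers 5 to 8 alone (0.119) Slc7a11 did not pass, nor with normexp, where its log2 fold change was -1.16. Slc7a9, a carrier of cystine and cationic amino acids chosen here after its values were seen, differed by 1.47 (limma adjusted p = 0.0832) and passed with slide as a block (0.0391). Without WT 3 (0.0551), with the sample-number block (0.0898) and in numbers 5 to 8 alone (0.292) Slc7a9 did not pass. Nor did it with normexp, where the log2 fold change was 0.42 (0.824). All 7 KO arrays but only 3 of 5 WT arrays had Slc7a9 signal well above background, so the size of this difference is uncertain.

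**Figure D3:**
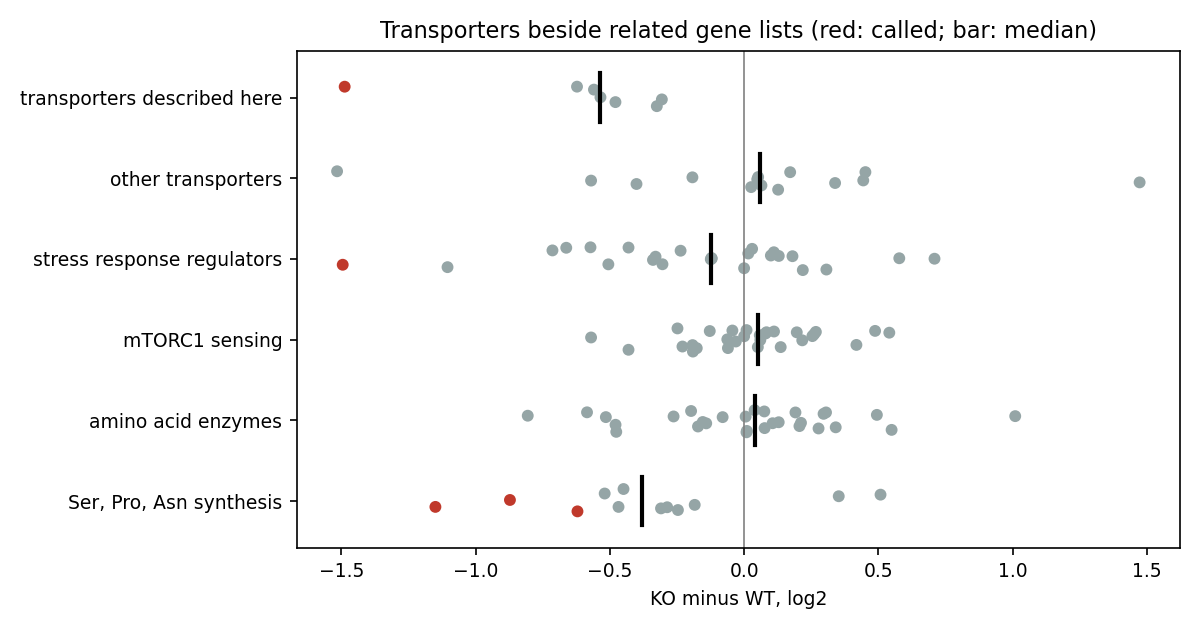
Log2 fold change, KO minus WT (x axis), of every tested gene, 1 point each, for the 7 carriers at the top and 5 related gene lists; the bar is the list's median and red points are called by limma. The carriers and the serine, proline and asparagine genes have medians of -0.53 and -0.38, and the other lists lie between -0.12 and 0.058.

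For each tested carrier the 2 genes with the nearest profile over the 12 arrays were found among 10047 genes, as the smallest root mean square difference between log2 signals after each gene's mean was subtracted. Slc1a4 lay nearest to Trib3, a pseudokinase that restrains ATF4 (difference 0.53), and to Map1b, a microtubule-associated protein (0.55). Slc6a9 lay nearest to Gata4, a transcription factor (0.17), and to Chac1, an enzyme that degrades glutathione (0.17). Slc7a1 lay nearest to Myc, the transcription factor (0.21), and Cnst (0.21), and Slc3a2 to Vim, the intermediate filament vimentin (0.13), and Gpx8 (0.16). Slc1a5 lay nearest to Sik3, a kinase (0.13), and Egln3, an oxygen-sensing hydroxylase (0.13), and Slc38a2 to Tnfrsf12a, a receptor of the tumour necrosis factor family (0.12), and Rad1 (0.12). Slc7a5 lay nearest to Tubb3, a neuronal tubulin (0.53), and Ccn1, a matrix-associated signalling protein (0.58). The median difference from all compared genes ran from 0.46 for Slc38a2 to 1.02 for Slc7a5, so a small difference for a carrier that varies little is not a closer likeness than a larger one for a carrier that varies much.

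**Figure D4:**
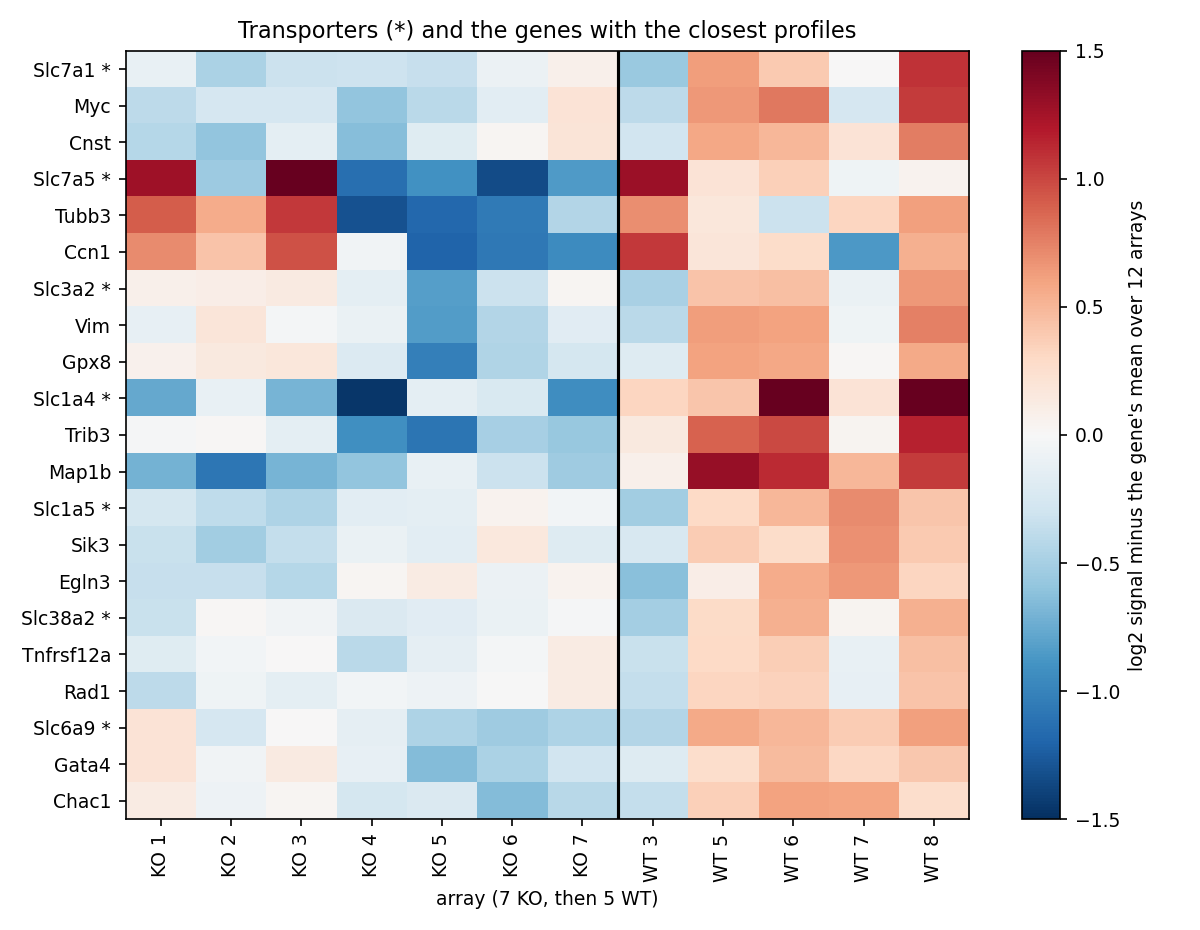
Log2 signal minus the gene's mean over 12 arrays (colour scale) for each tested carrier, marked with *, and its 2 nearest genes, with the 7 KO arrays left of the 5 WT arrays. WT 5 to WT 8 are mostly above the gene's mean and WT 3 below it, except for Slc7a5 and Slc1a4 and their neighbours.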

How the data were processed

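Total RNA of 7 KO and 5 WT cultures was labelled with Cy3, per the labels' protocols, and read with Agilent Feature Extraction 10.7, per the submitters' processing notes, or 10.1.1.1, per the file headers. The deposited scanner files give linear spot intensity, with yes-or-no flags in other columns (above background, saturation, uneven spots). Log2 values normalized by the authors make up the deposited value table, and its columns all matched a sample. Of 45598 probes, 21109 were named by accession, 6684 by symbol and 424 by synonym through the RefSeq table, and 17381 kept the file's name.

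From these, uneven and outlying spots were left out, spots of a probe averaged, and the array's 75th percentile subtracted from log2 signal. The brightest probe stood for a gene. Features well above background on at least 5 arrays (14742) were fitted with limma 3.58.1 in R 4.3.3, KO minus WT, two-sided, with Benjamini-Hochberg adjusted p. The fit was tested on simulated data. Genes named are Vdac1, the 9 carriers, up to 4 called genes per list (or the smallest p where 0 were called), and the 2 nearest profiles of each carrier. The carriers and lists were chosen with earlier results of these data known. Since the independence of the cultures is not stated, p-values cover only their spread. The number of arrays limits the precision. Alternatives were normexp (offset 50), quantile normalization, the value table, no filter, other probe rules, slide, sample numbers, single arrays left out and, added after seeing the data, an RNA quality covariate.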

Additional observations from a re-analysis of the deposited data

Results flagged for a closer look

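Slc6a9 on WT 3 stood apart from the other WT arrays. Its log2 signal there was -1.53, while the nearest other WT array, WT 7, had -0.71, and this gap was 0.778 of the range of the 5 WT arrays. Of 14 groups examined, 7 carriers in 2 genotypes, 1 had such a gap, and chance gives one in about 5% of groups. The cause was not tested.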

How the results depend on the processing

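Over 27 alternatives the log2 fold change of Slc1a4 was below 0 in all 27 and passed in 4. These were the mean of a gene's probes, each probe on its own, the sample-number split as a block, and without WT 3. Slc1a4 has no second probe, so under both probe rules its own values were unchanged. Only the other features in those fits differed, and these passes add nothing to the main result. Features called higher and lower by limma, 103 and 58 with all arrays and the main processing, were 16 and 9 with normexp, 253 and 151 with slide as a block, 1062 and 924 within slide 2, 446 and 303 with the sample-number split as a block, 332 and 345 for numbers 5 to 8, 47 and 5 for numbers 1 to 4, and 49 and 32 with RNA quality as a covariate, an alternative chosen after seeing the data. Higher calls were 56 with quantile normalization and 54 with the deposited value table. Limma called 0 and 0 with no filter (1129 and 852 at unadjusted p under 0.05), within slide 1 (986 and 768) and within slide 3 (428 and 355). Carriers called lower were 0 with normexp, quantile normalization, the value table, no filter, slide as a block, slides 1 and 3 and RNA quality. In numbers 5 to 8 they were 2. Leaving out 1 array at a time gave 9 to 383 features higher, 3 to 268 lower and 0 to 4 carriers lower, highest without WT 3 in each case. With any other array left out Slc1a4 did not pass (adjusted p up to 0.121). The cause was not tested.

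With the replicate block, the sample number as a block, limma called 0 features higher, 0 lower and 0 carriers (920 and 614 features at unadjusted p under 0.05). Arrays of the same number deviated from their group means with correlations of 0.46, -0.11, 0.073 and 0.050 for numbers 3, 5, 6 and 7. The best match was the array's own number for number 3 and another number for 5, 6 and 7. These few correlations cannot settle whether the numbers pair the samples.

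Differences turned above 0 for Slc1a5 within slide 1 (0.063), for Slc7a5 within slide 2 (0.60), and in numbers 1 to 4 alone for Slc7a1 (0.26), Slc3a2 (0.53), Slc1a5 (0.21), Slc38a2 (0.35) and Slc6a9 (0.39). The index of RNA quality, the median log2 difference between a downstream and an upstream probe of 914 transcripts, ran from 1.85 to 2.01 on KO arrays and from 1.87 to 2.13 on WT arrays. Signal near background limits Slc1a4, and Slc38a1 and Slc7a3 were well above background on 0 arrays.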

Other observations

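Sensing and breakdown of amino acids were covered by a further pair of lists. Of 29 tested genes of amino acid sensing by mTORC1, limma called 0 (median log2 fold change 0.051; 3 higher and 0 lower at unadjusted p under 0.05). The smallest p was that of Sec13, a subunit of the GATOR2 complex and of vesicle coats, at 1.47 ± 0.095 on KO arrays and 1.05 ± 0.11 on WT arrays (SD, n = 7 and 5; log2 fold change 0.42, limma adjusted p = 0.0779). Sec13 passed with the sample-number block (adjusted p = 0.0422) and without WT 3 (0.0465). It did not pass with slide as a block (0.0514), in numbers 5 to 8 alone (0.110) or with normexp (0.290). Lamtor3, a subunit of the Ragulator complex chosen after its values were seen, differed by 0.54 (limma adjusted p = 0.0832). It passed with slide as a block (0.0346) and with the sample-number block (0.0321). It did not pass without WT 3 (0.0714), in numbers 5 to 8 alone (0.103) or with normexp (0.566). Of 29 tested enzymes of arginine, glutamine, glycine and branched-chain amino acid metabolism, limma called 0 (median 0.039; 3 higher and 3 lower at unadjusted p under 0.05). The smallest p was that of Arg2, the mitochondrial arginase, at -0.95 ± 0.62 on KO arrays and -1.96 ± 0.40 on WT arrays (log2 fold change 1.01, limma adjusted p = 0.109). Arg2 passed with the sample-number block (adjusted p = 0.0453) and without WT 3 (0.0445). It did not pass with slide as a block (0.106), in numbers 5 to 8 alone (0.193) or with normexp (0.241).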
